A study of Mus musculus with 65 samples.

Results

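C1qa, C1qb and C1qc encode the 3 chains of complement component C1q. They are picked out by symbol, a rule with no threshold on a measured value, although the set was proposed with results of these data known, and are 3 of the 50686 genes in the count table. Their RNA was followed in the retinas of 65 adult C57BL/6J mice, 1 library per mouse, in 16 groups. In the group CD (n = 5) mice ate the control diet. In the 6 depletion groups they ate PLX5622, an inhibitor of the receptor CSF1R on which microglia depend, for 2, 5, 7, 10, 14 or 21 days (DEP2 to DEP21; n = 3 in DEP5 and 4 in the others). In the 7 repopulation groups the inhibitor was withdrawn and the control diet resumed for 3, 5, 7, 10, 14 or 21 days or 2 months (REPOP3 to REPOP21 and REPOP60, n = 6 in REPOP7 and 4 in the others). The study's repopulation scheme has 14 days of PLX5622 before the withdrawal. LPSCD (n = 3) received lipopolysaccharide (LPS), a bacterial endotoxin given at 1 mg/kg in the study, on the vehicle diet. LPSREPOP (n = 4) is labelled as PLX5622 with LPS and is called the LPS challenged repopulated retina in the study; its labels give no repopulation time. PLX5622 was given in the diet and reaches microglia and other CSF1R-expressing cells throughout the body.

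C1q is the recognition molecule of the classical complement pathway. Each of its arms is a collagen-like trimer of an A, a B and a C chain, and with the proteases C1r and C1s it forms the C1 complex, which cleaves C4 and C2 when C1q has bound to antibody or to cell debris. In the brain and the retina its 3 chains are made largely by microglia and other macrophages, and C1q on synapses is known as a tag for their removal.

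The 3 genes lie side by side on the minus strand of chromosome 4 (GENCODE M21, GRCm38). C1qb (ENSMUSG00000036905) spans chr4:136880129-136886187, C1qc (ENSMUSG00000036896) chr4:136889804-136893065 and C1qa (ENSMUSG00000036887) chr4:136895917-136898803, so that the cluster covers 18.7 kb, and no other annotated gene overlaps any of them. The nearest protein-coding neighbours are the ephrin receptor genes Ephb2, 44.1 kb away, and Epha8, 30.6 kb away. Promoters are shown because the 3 genes moved together in these data; RefSeq (GRCm38.p6) gave one for C1qb and C1qc and none for C1qa. Each holds 250 bases before the RefSeq start of transcription and 50 after it, 5′ to 3′ on the strand of the gene, and capitals mark a match to a PU.1 motif. For C1qc that start lies inside the GENCODE gene, whose 5′ end is at 136893065, so part of the 250 bases falls within the gene.
C1qb promoter, chr4:136886151-136886450, minus strand: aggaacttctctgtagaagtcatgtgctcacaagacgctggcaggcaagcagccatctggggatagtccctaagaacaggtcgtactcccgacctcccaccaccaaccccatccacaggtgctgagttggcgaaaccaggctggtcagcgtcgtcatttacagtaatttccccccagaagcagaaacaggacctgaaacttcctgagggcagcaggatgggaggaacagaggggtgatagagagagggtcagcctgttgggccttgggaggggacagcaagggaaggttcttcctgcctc
C1qc promoter, chr4:136892865-136893164, minus strand: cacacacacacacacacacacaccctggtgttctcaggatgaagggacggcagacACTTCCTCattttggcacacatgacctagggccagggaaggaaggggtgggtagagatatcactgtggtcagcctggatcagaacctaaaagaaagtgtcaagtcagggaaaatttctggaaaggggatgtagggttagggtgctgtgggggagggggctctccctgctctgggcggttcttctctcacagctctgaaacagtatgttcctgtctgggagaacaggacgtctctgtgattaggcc

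Both strands were searched for 4 motifs. The C1qc window held 1 match to GAGGAAGT (PU.1, a lineage factor of macrophages and microglia), on the opposite strand at bases 56 to 63, and the C1qb window held none. Neither window held the ETS-IRF composite motif, the interferon response motif or the NF-kB motif. Of 32851 RefSeq mouse promoters of the same length, 3.202% held the PU.1 letters, 2.715% the ETS-IRF letters, 3.443% the interferon letters and 0.155% the NF-kB letters. A match is a description of the letters in the window and was not tested as a binding site.

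Levels are given as CPM (counts scaled by library size with TMM factors over all mice) or, between genes, as the authors' FPKM, which corrects for length. Library totals ran from 5106429 to 8760443 counts (median 7944665), and the smallest library, a REPOP21 mouse, stood apart from the next at 7367693. A count of 3, used as the floor of detection, equals 0.343 to 0.574 CPM depending on the library. The sample titles end in RE (39 mice) or re (26 mice), and this suffix, whose meaning the labels do not give, separated the libraries on the first principal component (55.9% of the variance of 12346 genes). REPOP60, LPSCD and LPSREPOP held re mice alone, CD held 3 RE and 2 re mice, and most of the other groups 3 RE and 1 re, so that the suffix was spread unevenly over the groups. All comparisons with CD share the same 5 CD mice. The 14 retinal neuron markers summed to 44850 to 56689 CPM in CD, and none was at 0 in every CD mouse.

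In the control retina the C1q genes were low-abundance transcripts. C1qa, the A chain, had counts of 21, 36, 24, 33 and 32 in the 5 CD mice (3.64 CPM ± 0.70, SD). C1qb, the B chain, had 22, 27, 27, 36 and 12 (3.07 CPM ± 0.97). C1qc, the C chain, had 16, 27, 19, 39 and 27 (3.17 CPM ± 0.99). The fifth CD mouse, labelled 2M, was the lowest of the group for C1qb and within the range of the other 4 for C1qa and C1qc. The REPOP60 labels carry the same 2M, and whether this mouse is their control in time is not stated. Per length, the mean FPKM in CD was 3.50 ± 0.36 for C1qa, 2.87 ± 0.58 for C1qb and 2.63 ± 0.65 for C1qc, and the ranges of the 3 genes overlapped.

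**Figure D1:**
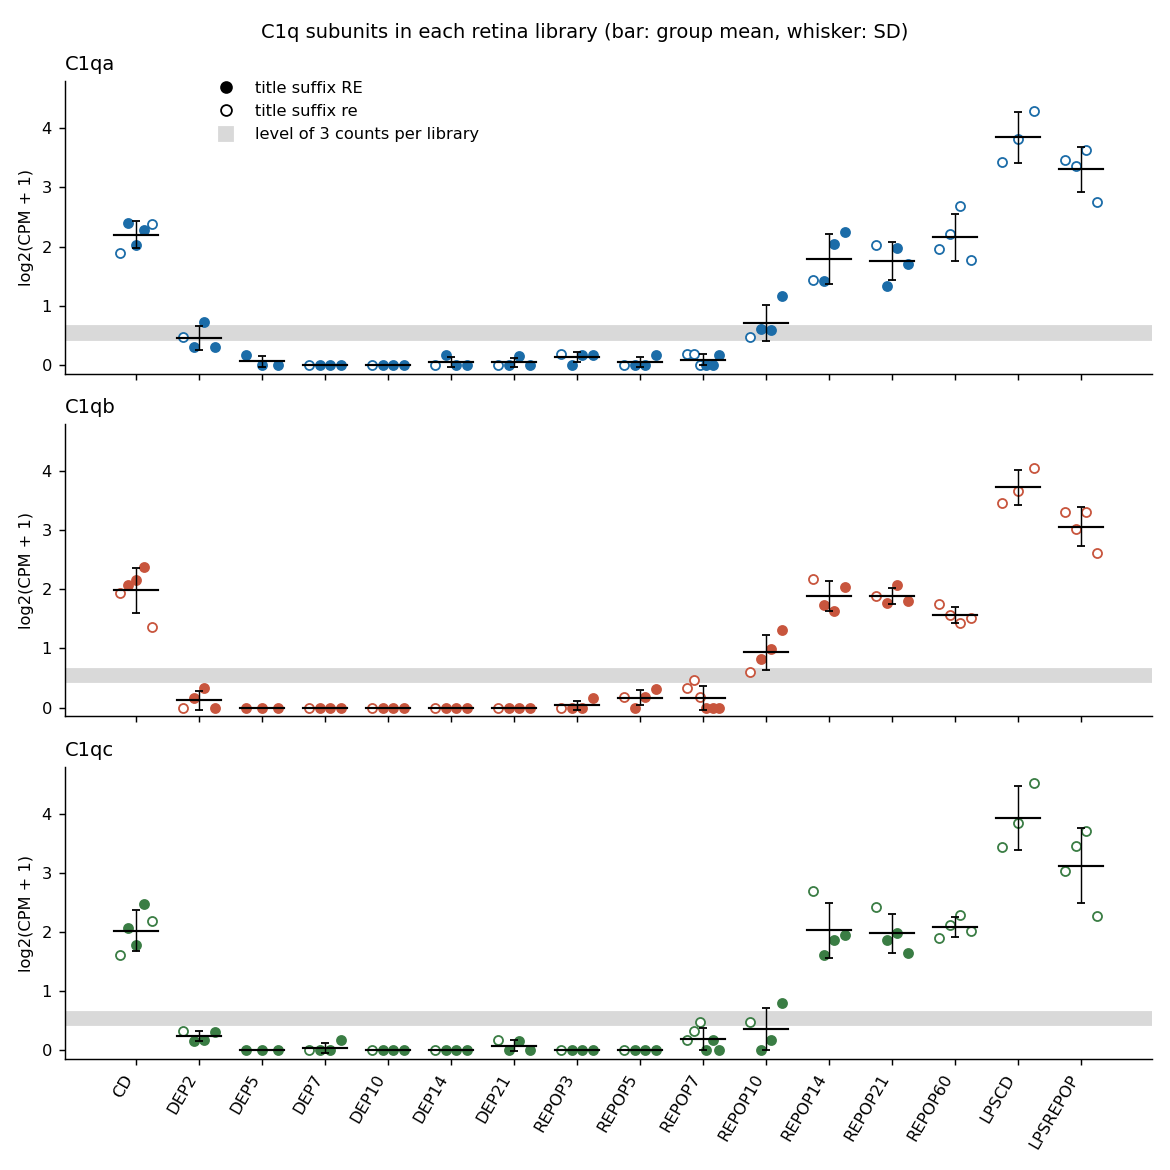
Level of C1qa, C1qb and C1qc in each of the 65 mice, as log2(CPM + 1), for the 16 groups; filled points are mice with the title suffix RE and open points those with re, bars are group means, whiskers the SD and the grey band the level of 3 counts per library. From DEP5 to REPOP7 nearly all mice lie at or under the band, REPOP14, REPOP21 and REPOP60 overlap CD, and the LPSCD and LPSREPOP mice lie above CD apart from C1qc in 1 LPSREPOP mouse at 3.84 CPM.

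The first question was how far the 3 genes fell when microglia were depleted. After 2 days of PLX5622 the fall was already large. C1qa counts in DEP2 were 3, 2, 5 and 2, C1qb counts were 0, 1, 2 and 0 and C1qc counts were 2, 1, 1 and 2. Every DEP2 mouse was below every CD mouse for each subunit, where 0.618% of all genes tested were lower without overlap. C1qa was the subunit with counts of at least 2 in all 4 mice. Summed over mice, C1qa was 9.83-fold lower than in CD (exact Poisson 95% interval 5.46 to 19.5, counting error only). All 3 subunits were differentially expressed genes (DEGs, edgeR quasi-likelihood test, FDR under 0.01 and more than a 2-fold change), with log2 fold changes of -3.24 ± 0.34 (SE) for C1qa, -4.84 ± 0.55 for C1qb and -4.00 ± 0.42 for C1qc and FDR of 0.000178, 0.000432 and 0.000178. The background was 0.0334% of the 23946 genes tested called lower, that is 8 genes, of which the C1q chains were 3 and the microglia genes Laptm5, Selplg, Cx3cr1, Ctss and Tmem119 the other 5.

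From day 5 of depletion on, C1q RNA was at the limit of detection. Over the 19 mice of DEP5 to DEP21 there were 3 counts of C1qa, 0 of C1qb and 3 of C1qc, never more than 1 in a mouse, and DEP10 had no count of any subunit. At day 14, where C1qb and C1qc had no count in any of 4 mice and C1qa 1 count in 1 mouse, the level was at least 8.10-fold lower than in CD for C1qb and at least 8.38-fold lower for C1qc, taking 3 counts per library as the floor. Neither gene can be called absent at this depth. All 3 subunits were called lower than in CD at each of these times, by edgeR's quasi-likelihood test with FDR from 2.49e-05 to 0.00114, against backgrounds of 0.0345% (DEP5), 0.0375% (DEP7), 0.0376% (DEP10), 0.0335% (DEP14) and 0.0337% (DEP21) of all genes tested. In DEP5, the group of 3 mice, C1qa alone of the 3 was called once replicate 1 was left out.

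These values come from whole retina, in which fewer cells of a type and less RNA per cell cannot be told apart. Of the 12 microglia reference genes (Cx3cr1, P2ry12, P2ry13, Tmem119, Siglech, Gpr34, Selplg, Laptm5, Ctss, Csf1r, Ly86 and Fcrls), 5 were called lower in DEP14 and the other 7 were not, all 12 log2 fold changes were negative, and the median log2 fold change of the 12 was -5.38 against 0.01 over all genes. Csf1r, which encodes the drug's target, kept 51.7% of its CD level in DEP14, whereas C1qa was at 0.858% and C1qb and C1qc were listed at 0. Tmem119, a gene of resident microglia, and Cx3cr1, the fractalkine receptor, were at 0 in all 4 mice. In DEP14, 1 of the 14 neuron markers and 1 of the 7 Müller glia and astrocyte markers had an unadjusted edgeR p under 0.05. None was called, where 0.0335% of all genes were, and the median log2 fold changes of the 2 lists were 0.03 and 0.04. The glial marker was Gfap, with a log2 fold change of 0.93 ± 0.12 and an edgeR FDR of 0.0021. It passed the FDR threshold and fell short of the 2-fold threshold alone.

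The other complement genes were examined at day 14 of depletion. In DEP14 none of the 16 tested complement activation genes, 13 regulators and 11 receptors was called in either direction, where 0.0335% of all genes were, so that a list of this size would hold about no call at that share. Their median log2 fold changes were 0.41, 0.01 and -0.21 against 0.01 over all genes. C3, the central component, had a log2 fold change of 0.53 ± 0.32 (FDR = 0.946), and C4b, the substrate of C1s, one of 0.33 ± 0.27 (FDR = 0.946) by edgeR. C1s1 and C1ra, the protease partners, had -0.54 ± 0.36 and 0.81 ± 0.78 (FDR = 0.946 for each, edgeR). Itgam, which with Itgb2 forms complement receptor 3 and which microglia share with other myeloid cells, had -5.46 ± 0.92 but an FDR of 0.0853 in the edgeR test. The 17 relatives with a C1q domain, among them the synaptic organisers Cbln1 and C1ql2, held no call in any of the 21 comparisons, in 9 of which no gene at all was called, and the median log2 fold change of the 16 tested in DEP14 was -0.10. C1qbp, a binding protein for C1q that most cells make, stood at 32.4 CPM in DEP14 and 30.9 CPM in CD. The neighbours of the cluster had log2 fold changes of -0.16 ± 0.11 for Ephb2 (FDR = 0.946, edgeR) and -0.07 ± 0.12 for Epha8 (FDR = 0.955).

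The next comparisons followed C1q through repopulation. For the first week after withdrawal of PLX5622 the chains remained near the floor. Over the 14 mice of REPOP3, REPOP5 and REPOP7 there were 7 counts of C1qa, 11 of C1qb and 7 of C1qc, with at most 3 in a mouse. In REPOP7 the C1qb counts were 2, 3 and 1 in the 3 re mice and 0 in each of the 3 RE mice, so that the suffix and the C1qb count went together within this group. All 3 subunits were still called lower than in CD, against backgrounds of 0.0377% (REPOP3), 0.0336% (REPOP5) and 0.0594% (REPOP7) of the genes tested. Log2 fold changes in REPOP7 were -5.54 ± 0.41, -4.45 ± 0.49 and -4.30 ± 0.44 for C1qa, C1qb and C1qc (edgeR, FDR of 4.37e-06, 0.000389 and 0.000208).

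By day 10 C1qa and C1qb were above their day 7 level, while C1qc overlapped it. C1qb counts were 4, 6, 8 and 12 in the 4 REPOP10 mice, a mean of 0.940 CPM ± 0.407 (SD) or 30.6% of CD. C1qa counts were 3, 4, 4 and 10, a mean of 0.658 CPM ± 0.386 or 18.1% of CD. C1qc counts were 3, 0, 1 and 6, a mean of 0.313 CPM ± 0.327 or 9.87% of CD. Replicate 4 was the highest mouse for each subunit, and C1qb had the most counts of the 3 chains in every mouse. Against REPOP7 the ranges of C1qa and C1qb did not overlap (two-sided exact permutation p = 0.00476 for each, adjusted p = 0.0167 and 0.0185 over 21 comparisons per subunit), where 0.322% of all genes tested were higher without overlap. C1qc overlapped REPOP7 (exact permutation p = 0.362, adjusted p = 0.475). In the fit across all genes no subunit was called against REPOP7 or DEP14, where 0% of genes were called, with unadjusted p from 6.27e-05 to 0.253 in the edgeR test.

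REPOP10 was still below CD. All 3 subunits lay below every CD mouse (exact permutation p = 0.00794 for C1qa and C1qc and 0.0159 for C1qb, adjusted p = 0.0167, 0.0185 and 0.0312), where 0.591% of genes were lower without overlap. The log2 fold changes were -2.44 ± 0.33 for C1qa, -1.70 ± 0.34 for C1qb and -3.28 ± 0.49 for C1qc, with FDR of 0.0148, 0.459 and 0.0329, so none passed the DEG threshold and 0% of all genes did. Same-numbered mice of these 2 groups deviated together (r of 0.234 or more in each of 4 pairs). Both mice of each pair had the same title suffix, so a pairing by number cannot be told apart from the suffix. A fit that blocked on replicate number, which leaves out CD mouse 2M, called all 3 subunits, with FDR of 5.22e-06, 0.000134 and 1.44e-06 by edgeR. With the title suffix as a covariate all 3 were also called, with FDR of 5.83e-05, 0.00171 and 6.52e-05. These 2 fits are not separate support for each other. Without a low-count filter edgeR called 2.

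At this stage the share of C1qb in the C1q reads was above that in CD, on few reads. C1qb made up 40.0%, 60%, 61.5% and 42.9% of the C1q reads of the 4 REPOP10 mice, a mean of 51.1% ± 11.2 (SD), and 31.2% ± 8.69 in CD. No REPOP10 mouse fell into the CD range of 16.9% to 38.6% (exact permutation p = 0.00794, adjusted p = 0.0476 over 6 groups). The counts behind these shares were 10, 10, 13 and 28 C1q reads. The lowest share, 40.0% of 10 reads, lay close to the CD maximum of 38.6%, and the adjustment did not extend across the subunits. C1qc took 14.8% ± 13.5 of the reads in REPOP10 and 31.7% ± 5.10 in CD, with overlapping ranges and an adjusted p of 0.190 in the exact permutation test. C1qa took 34.1% ± 4.67 and 37.1% ± 5.59 (adjusted p = 0.667, exact permutation test). In the other 5 groups the C1qb share ran from 23.0% in REPOP60 to 33.6% in REPOP21, and none differed from CD after adjustment (the lowest adjusted exact permutation p was 0.452, in REPOP60).

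**Figure D2:**
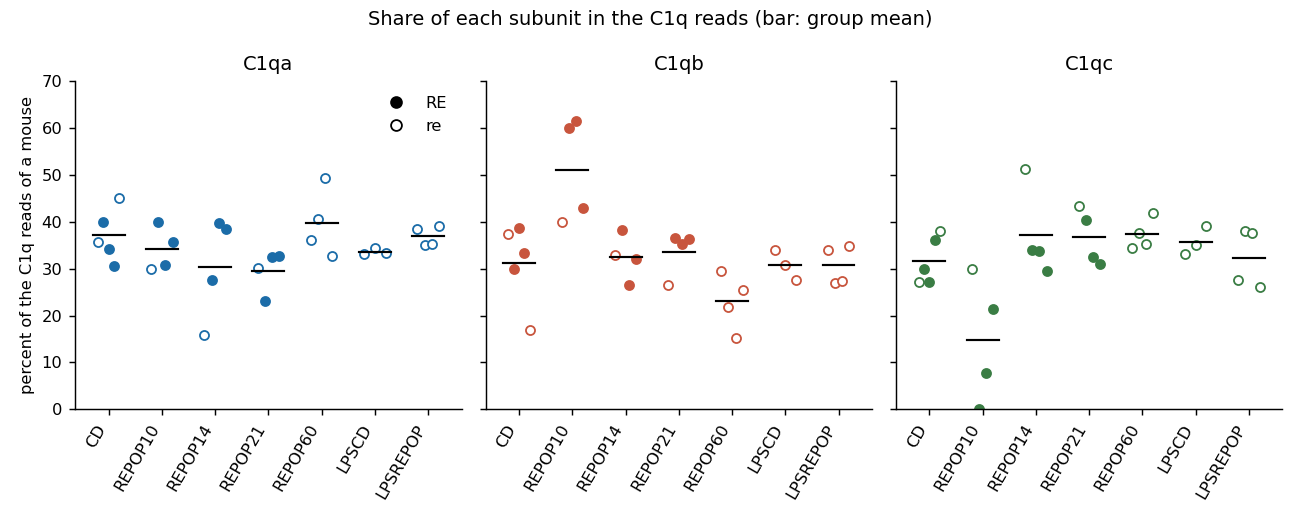
Percent of the C1q reads of each mouse that came from C1qa, C1qb and C1qc, in CD and the 6 groups with at least 10 C1q reads in every mouse; filled points are RE mice, open points re mice and bars group means. C1qb in REPOP10 lies between 40.0% and 61.5%, above the CD range, and C1qc in REPOP10 lies between 0% and 30.0%.

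Between days 10 and 14 the level of all 3 chains went up and overlapped that of the control mice. C1qa counts in REPOP14 were 13, 13, 27 and 30 (70.4% of the CD mean CPM). C1qb counts were 27, 18, 18 and 25 (89.9%) and C1qc counts were 42, 16, 23 and 23 (103%). The re mouse of this group was the highest for C1qb and C1qc and second lowest in CPM for C1qa. The 3 subunits were each above every REPOP10 mouse (exact permutation p = 0.0286, the smallest that 4 against 4 allows, adjusted p = 0.0400, 0.0353 and, at the threshold itself, 0.05), where 0.621% of genes were higher without overlap. In the fit across all genes 0% of genes passed, and the subunits had log2 fold changes of 1.94 ± 0.42, 1.53 ± 0.34 and 3.31 ± 0.55 with FDR of 0.999, 0.999 and 0.795 by edgeR. C1qc was called with edgeR's likelihood ratio test (FDR = 9.14e-06), DESeq2 (0.00291) or the suffix as a covariate (0.00132). Against CD each subunit overlapped, with log2 fold changes of -0.50 ± 0.27, -0.17 ± 0.27 and 0.03 ± 0.30 in edgeR's fit.

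The recovery of the chains was set beside that of the microglia reference genes. The 12 reference genes were at a median of 46.1% of CD in REPOP14, and 9 of them were below the lowest C1q chain. Fcrls, a microglial Fc receptor-like gene, was the highest, at 286% of CD. In REPOP10 the median of the 12 was 15.8%, with 1 gene below all C1q chains, and in REPOP21 it was 61.0%, with 7 genes below. In REPOP60 it was 75.8%, with 2 genes below, and C1qb, at 64.0%, was under that median. Relative to the summed CPM of the 12 genes, the log2 ratio of C1qb in REPOP14 was 0.49 above CD (adjusted p = 0.143, exact permutation test over mice), that of C1qc 0.60 above (adjusted p = 0.114) and that of C1qa 0.03 above (adjusted p = 0.944). In REPOP10 the same ratio was 1.21 below CD for C1qa (adjusted p = 0.0357), 0.35 below for C1qb (adjusted p = 0.381) and 1.90 below for C1qc in the 3 mice with a count (adjusted p = 0.0357), all exact permutation tests. The mouse without a C1qc count, the lowest, has no ratio and is left out.

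The REPOP10 ratio depended on a single reference gene. Csf1r made up 72.1% of the reference sum in REPOP10, 49.1% in REPOP14 and 40.2% in CD. Without Csf1r, C1qb in REPOP10 was 0.93 above CD (adjusted p = 0.0159, exact permutation test) and C1qa 0.07 above (adjusted p = 0.778). C1qc was 0.73 below (adjusted p = 0.129), again in the 3 mice with a count alone, and C1qb in REPOP14 was 0.74 above CD (adjusted p = 0.0159). This alternative was chosen after the levels of Csf1r had been seen.

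**Figure D3:**
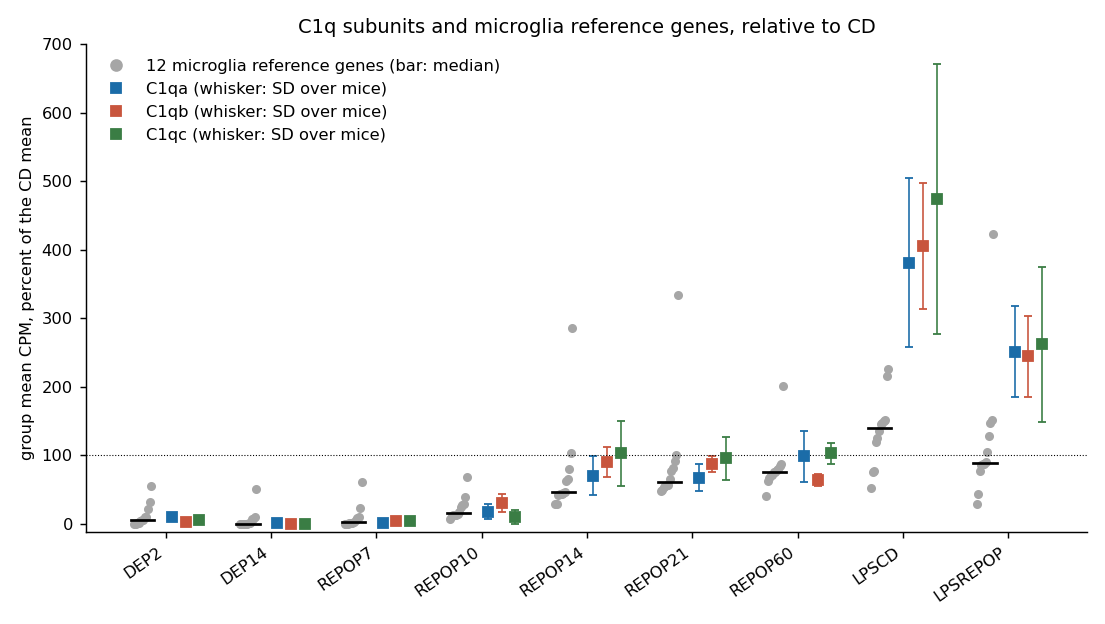
Group mean CPM as a percent of the CD mean for the 12 microglia reference genes (grey points, bar at their median) and for C1qa, C1qb and C1qc (squares, whiskers are the SD over mice) in 9 groups. The C1q chains lie at 70.4% to 103% of CD in REPOP14, where the reference median is 46.1%, and at 381% to 474% in LPSCD, where all 12 reference genes are lower.

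From day 14 to 2 months no chain was called in the fit across all genes. C1qa counts in REPOP21 were 16, 12, 23 and 18 (67.3% of CD in CPM), C1qb counts 14, 19, 25 and 20 (87.9%) and C1qc counts 23, 21, 23 and 17 (95.6%), the first mouse being the smallest library. None of the 3 was called between REPOP14 and REPOP21, with edgeR log2 fold changes of -0.10 ± 0.33, -0.03 ± 0.25 and -0.14 ± 0.32. In REPOP60 C1qa counts were 22, 28, 42 and 18 (98.7% of CD), C1qb counts 18, 15, 13 and 14 (64.0%) and C1qc counts 21, 26, 30 and 23 (103%). C1qb in REPOP60 lay below every REPOP21 mouse (exact permutation p = 0.0286, adjusted p = 0.0353), but 6.25% of all genes did so. REPOP60 held re mice alone and REPOP21 a single one, and on the FPKM scale the C1qb ranges gave an exact permutation p of 0.114. Against CD, C1qb in REPOP60 overlapped and had a log2 fold change of -0.65 ± 0.26 (FDR = 0.274, edgeR), where 0% of genes were called, and an exact permutation p of 0.0873 on log2(CPM + 1) and 0.0238 on log2(FPKM + 1). Among the re mice alone (4 against 2) the difference of log2(CPM + 1) was -0.09. The CD mouse labelled 2M, at 1.58 CPM of C1qb, lay below the REPOP60 range of 1.69 to 2.36 CPM. Without that mouse the edgeR log2 fold change was -0.80 (FDR = 0.0410). A part of mouse age in this comparison was not tested.

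The last question was how C1q responded to LPS in retinas with resident and with repopulated microglia. In the control retina all 3 chains were higher in LPSCD than in CD. C1qa was at 9.81, 13.1 and 18.7 CPM in the 3 LPSCD mice and between 2.71 and 4.28 CPM in CD, 381% of the CD mean. C1qb was at 10.1, 11.7 and 15.6 CPM (406% of CD). C1qc was at 9.81, 13.4 and 21.9 CPM (474% of CD). Every LPSCD mouse was above every CD mouse (exact permutation p = 0.0179, the smallest that 3 against 5 allows, adjusted p = 0.0312, 0.0312 and 0.0341), where 6.43% of genes were higher without overlap, and the order of the 3 mice was the same for each chain.

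In the fit across all genes the 3 chains were called higher, with log2 fold changes of 1.92 ± 0.23 for C1qa, 2.0 ± 0.24 for C1qb and 2.23 ± 0.27 for C1qc (edgeR, FDR = 0.00121 for each). They were among 38 genes called higher, 0.161% of those tested, while 0.00424% were called lower and 0.165% in either direction. The call depended on 1 mouse and on the suffix. Without replicate 3, none of the 3 and 2 genes in all were called, with log2 fold changes of 1.65, 1.81 and 1.85 and FDR of 0.0150, 0.0239 and 0.0185 by edgeR. With the title suffix as a covariate, none of the 3 and no other gene was called, with log2 fold changes of 2.0, 2.48 and 2.41 and FDR of 0.0318, 0.0103 and 0.0341.

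The chains were set beside 2 lists of microglia genes. All 12 reference genes were at a lower percent of CD than each C1q chain in LPSCD, with a median of 140% and a highest value of 226% for Laptm5, a lysosomal membrane gene, which was the 1 reference gene called. In a second list of 16 microglia and myeloid genes all 16 had positive log2 fold changes, with a median of 1.09 against 0.01 over all genes, and 2 were called, Itgb2 and the Fc receptor gene Fcgr3. Over all genes 0.161% were called higher in LPSCD. Itgb2 (558% of CD), Fcgr3 (657%) and Spi1, which encodes PU.1 (490%), were at a higher percent of CD than each C1q chain. Relative to the summed reference genes, the log2 ratio rose by 1.22 for C1qa (adjusted p = 0.0357, exact permutation test) and by 1.53 for C1qc (adjusted p = 0.0357), and stood 1.38 higher for C1qb (adjusted p = 0.0536), with no overlap of the mice for any chain. Without Csf1r in the sum the differences of C1qa, C1qc and C1qb were 1.16, 1.48 and 1.32, with adjusted p of 0.0536, 0.0536 and 0.0268 by the exact permutation test. Of 9 tested markers of monocytes and perivascular macrophages, cells that can also make C1q, none was called in LPSCD. At the share of 0.161% a list of this size would hold about no call. The summed level of the 12 listed was 13 to 14.2 CPM in LPSCD and 12.1 to 20.5 CPM in CD, mostly Lyve1, with Pf4 at 0 in every mouse of both groups. Lyve1 itself had a log2 fold change of -0.48 ± 0.17 (FDR = 0.117, edgeR), so the sum says little about the other markers. Of the 9 tested, 7 had positive log2 fold changes, with a median of 0.61 against 0.01 over all genes. An unadjusted edgeR p under 0.05 was seen for 3 of them, Lyve1 among these. F13a1 was at 0.129 to 3.01 CPM in LPSCD and at 0 in CD, with a log2 fold change of 6.25 ± 1.46 (FDR = 0.0492, edgeR). Of 5 endothelial markers, Cldn5 and Pecam1 were called in LPSCD, where 0.161% of all genes were called higher, with a median log2 fold change of 0.63. In LPSREPOP against REPOP60, where 0.393% of all genes were called higher, Cldn5 alone of the 5 was called, with a median of 0.60. The part of these cells in the C1q result was not tested.

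In the repopulated retina the means of all 3 chains were higher in LPSREPOP than in REPOP60. C1qa was at 10.1, 9.28, 11.4 and 5.76 CPM in LPSREPOP, C1qb at 8.92, 7.09, 8.86 and 5.12 CPM and C1qc at 7.21, 10.1, 12.1 and 3.84 CPM, with replicate 4 the lowest for each chain. For C1qa and C1qb every mouse was above every REPOP60 mouse (exact permutation p = 0.0286, adjusted p = 0.0400 and 0.0353), where 3.98% of genes were higher without overlap. For C1qc replicate 4 fell inside the REPOP60 range of 2.75 to 3.89 CPM (exact permutation p = 0.0571, adjusted p = 0.0923). All 3 were called higher in edgeR's fit, where the background was 0.393% of genes, with log2 fold changes of 1.34 ± 0.22, 1.92 ± 0.22 and 1.34 ± 0.25 and FDR of 0.000416, 3.43e-06 and 0.00171. Leaving out replicate 1 or 3 of LPSREPOP or replicate 1, 2 or 4 of REPOP60 left C1qb called alone, and leaving out replicate 3 of REPOP60 left C1qa and C1qb. As REPOP60 mice had 2 months of repopulation and that of LPSREPOP is not in the labels, time and LPS may not be matched in this comparison.

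Between the LPS groups the repopulated retina had the lower means. LPSREPOP stood at 251%, 244% and 262% of CD for C1qa, C1qb and C1qc. C1qb was below every LPSCD mouse (exact permutation p = 0.0286, adjusted p = 0.0353), where 2.97% of genes were lower without overlap, while C1qa and C1qc overlapped (exact permutation p = 0.171 and 0.143). On the FPKM scale the C1qb difference had an exact permutation p of 0.0571. The log2 fold changes were -0.60 ± 0.24, -0.73 ± 0.21 and -0.85 ± 0.32, each with an FDR of 0.617, and 0% of genes were called by edgeR. The change with LPS in repopulated retina minus that in resident retina was -0.58 ± 0.35 for C1qa, -0.08 ± 0.36 for C1qb and -0.89 ± 0.42 for C1qc on the log2 scale, with FDR of 0.446, 0.966 and 0.332 in edgeR's interaction test. Of these groups CD alone held RE mice. With all 16 groups and the suffix in one fit the values were -0.69, -0.19 and -0.59, and no subunit was called. Relative to the reference genes, LPSREPOP and LPSCD differed by -0.17, -0.31 and -0.47 (exact permutation p = 0.657, 0.200 and 0.400, unadjusted). The median of the reference genes in LPSREPOP was 89.3% of CD, and 11 of the 12 were below all C1q chains, Fcrls at 423% being the exception.

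Few of the other complement genes passed the test after LPS. C3 was called in both LPS comparisons, with log2 fold changes of 3.17 ± 0.40 (FDR = 0.00194) in LPSCD and 4.25 ± 0.52 (FDR = 1.14e-05) in LPSREPOP by edgeR. C4b was called in LPSREPOP, with 2.22 ± 0.32 (FDR = 9.97e-05), and had 2.24 ± 0.38 with an FDR of 0.0108 in LPSCD. C1ra, the C1r protease of the C1 complex, had 3.40 ± 0.68 and 1.34 ± 0.43 with edgeR FDR of 0.0231 and 0.0974, and C1s1 had 0.66 ± 0.33 and 0.69 ± 0.36 with FDR of 0.246 and 0.408. In all, 1 of 14 tested activation genes was called higher in LPSCD and 2 of 14 in LPSREPOP, none was called lower, where 0.161% and 0.393% of all genes were called higher. With the suffix as a covariate no gene was called in LPSCD. The medians were 0.41 and 0.09 against 0.01 and -0.01 over all genes.

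Of the regulators, Serping1, the inhibitor of C1r and C1s, was called in LPSREPOP, with a log2 fold change of 1.57 ± 0.24 (edgeR, FDR = 0.000246). In LPSCD it had 1.94 ± 0.35 with an FDR of 0.0146 by edgeR, and 0 of 13 regulators was called there, against 2 of 13 in LPSREPOP, where the shares over all genes were 0.161% and 0.393%, with 4 at an unadjusted edgeR p under 0.05 in LPSCD. Among receptors, 1 of 12 tested was called higher in LPSCD and 2 of 13 in LPSREPOP, against the same shares over all genes. Itgb2, the beta chain of complement receptor 3, was called in both, with 2.45 ± 0.37 and 2.51 ± 0.41 (edgeR, FDR = 0.00651 and 0.000453). Cd93, once described as a C1q receptor and expressed by endothelium, was called in LPSREPOP, with 1.53 ± 0.24 (FDR = 0.000342, edgeR). In LPSREPOP against REPOP60, the neutrophil and monocyte genes S100a8 and S100a9 were also called, with log2 fold changes of 6.21 ± 1.26 and 3.92 ± 0.78 (edgeR). They made 2 of 10 tested monocyte and macrophage markers, where 0.393% of all genes were called higher, and the summed level of the 12 listed was 12.4 to 25 CPM against 12 to 16 CPM in REPOP60. The part of those cells in the C1q levels was not tested.

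**Figure D4:**
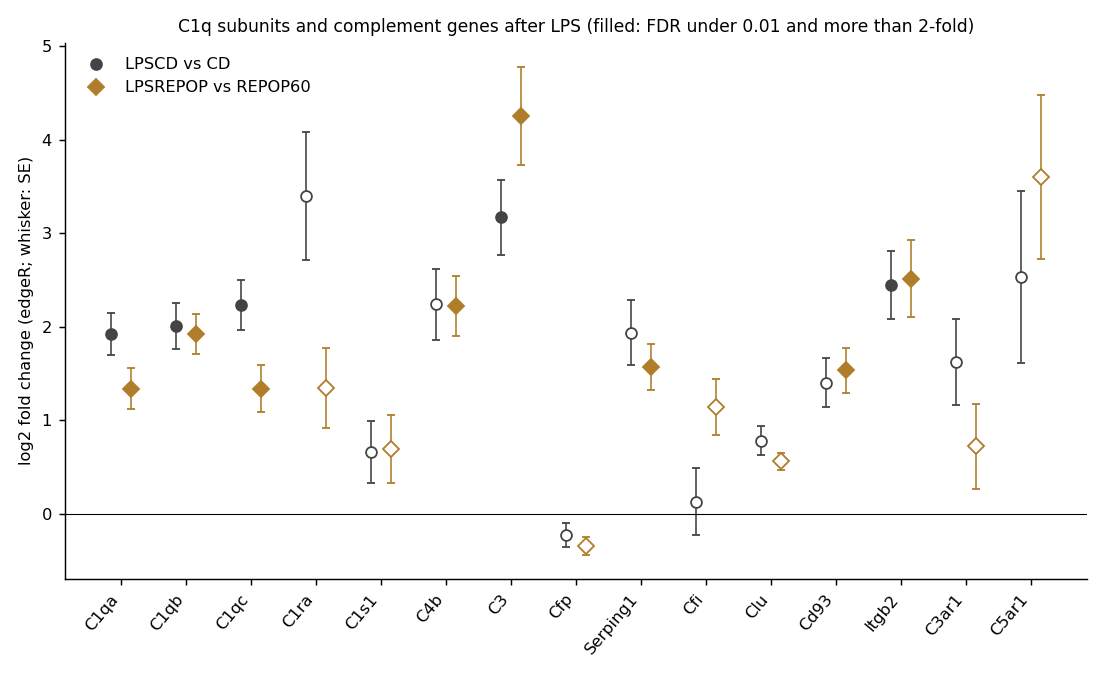
Log2 fold changes (edgeR, whiskers are SE) of the C1q chains and of complement components, regulators and receptors in LPSCD vs CD (circles) and LPSREPOP vs REPOP60 (diamonds); filled symbols pass the DEG threshold. The 3 C1q chains are filled in both comparisons, between 1.34 and 2.23, as are C3 and Itgb2.

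Across the 16 groups the order of levels was much the same for the 3 chains. LPSCD was highest and LPSREPOP next, and for C1qa and C1qb LPSREPOP was above CD without overlap (unadjusted exact permutation p = 0.00794 for each). CD, REPOP14, REPOP21 and REPOP60 followed in an order that differed between the chains. No neighbours among these 4 were separated except C1qb in REPOP21 and REPOP60, where 6.25% of all genes were lower in REPOP60 without overlap. REPOP10 came next, below REPOP21 for C1qa and C1qc and below REPOP60 for C1qb without overlap (unadjusted exact permutation p = 0.0286 for each). Neighbours were picked by ranking these same means, so the p-values in this paragraph are descriptions. The share of all genes without overlap was not computed for LPSREPOP against CD or for REPOP10 against REPOP21 and REPOP60. Below it, DEP2 was the highest group for C1qa and C1qc and REPOP7 for C1qb, and every group below REPOP10 had a mean of at most 0.378 CPM.

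Genes whose group means were most like those of the chains were microglia or myeloid genes. Over the 16 group means of log2(CPM + 1), among 15837 genes with at least 1 CPM in CD, the mean Pearson r with the 3 chains was 0.987 for Pld4 and Laptm5, 0.979 for Ctss, 0.971 for Cx3cr1, 0.970 for Csf1r, 0.964 for Selplg and 0.954 for Inpp5d. The chains themselves had r of 0.987 to 0.993 with each other. These are descriptions over 16 points whose groups differ in suffix, and over the 13 groups with RE mice, counting those alone, the same r was 0.974 for Pld4 and fell to 0.733 for Inpp5d. The group mean of Pld4, an endolysosomal exonuclease, went from 1.14 CPM in CD to 0.127 CPM in DEP14 and 2.76 CPM in LPSCD. That of Ctss, the protease cathepsin S, went from 6.99 CPM to 0.0917 CPM and 15.1 CPM in the same groups.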

How the data were processed

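Bulk RNA from whole retina, poly-A selected per the labels (the study's methods also name rRNA removal as an option), 1 library per mouse, was sequenced as single-end reads on the BGISEQ-500. The authors aligned reads to mm10 with HISAT2 and deposited raw gene counts made with HTSeq and FPKM values made with StringTie; tool versions and the strand setting of HTSeq are not given in the sources used here. Groups came from the sample labels. The C1q subunits are defined by symbol, but they and all gene lists were chosen with earlier results of these data known.

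Counts were tested for each pair of groups with edgeR 4.0.16 (R 4.3.3; TMM, quasi-likelihood test, Benjamini-Hochberg FDR over all genes tested), keeping genes with a count (1 or more) in a share of mice of at least 0.5 in 1 of the 2 groups. DEGs were those with FDR below 0.01 and an absolute log2 change above 1. For single values, exact permutation tests over mice (two-sided) were run (scipy 1.17.1) on log2(CPM + 1), on shares of C1q reads and on log2 ratios to 12 reference genes, with Benjamini-Hochberg adjustment over 21 comparisons, 6 groups and 6 groups. Where the labels do not name separate cultures or litters, p-values measure the spread between these mice. The floor was 3 counts per library, and 95% intervals cover counting error only. Named genes were the subunits, the complement and C1q-domain genes called in any comparison plus at most 4 more per list by FDR, the 12 reference genes, the neighbours of the cluster and the 8 genes most like the subunits; other genes were named for their role after their values were seen, and 2 genes that met the rule are not reported here. Replicate numbers were taken to pair 2 groups where every same-numbered pair of mice correlated above 0.1, which held in 8 comparisons with CD, REPOP10 among them. In all 8 the same-numbered mice also shared the title suffix, so this rule cannot tell a pairing of mice from the suffix. Alternatives were other tests (DESeq2 1.42.0), filters, scalings, covariates and left-out mice. The edgeR steps were tested on simulated data.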

Additional observations from a re-analysis of the deposited data

Results flagged for a closer look

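C1qa in REPOP10 had 1 mouse far from the others, replicate 4, at 1.23 CPM, with a gap to the next mouse that was 0.853 of the range of the group. In REPOP21 the C1qb share of the C1q reads was 26.4% in 1 mouse, the smallest library, with a gap of 0.869 of the range. These were 2 of 54 groups of values examined, and chance alone singles out about 1 in 20.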

How the results depend on the processing

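In DEP2 to REPOP7 all 3 subunits stayed called lower than CD under every alternative fit run that kept all mice. With each mouse left out in turn, 1 to 3 were called in DEP5 and 2 to 3 in REPOP3, and 3 in the other 7 groups. Depth limits the depleted groups, where a level under 3 counts cannot be told from 0. The causes of the changes below were not tested.

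In REPOP10 vs CD, where no subunit was called, 3 were with edgeR's likelihood ratio test, the suffix as a covariate, the replicate block, or all 16 groups in one fit with the suffix, and 2 with no low-count filter, DESeq2 or all 16 groups in one fit (0 to 2 with a mouse left out). In LPSCD vs CD 0 were called with the suffix as a covariate (0 to 3 with a mouse left out), and in LPSREPOP vs REPOP60 1 to 3 were with a mouse left out. In REPOP10 vs DEP14 1 was called with the likelihood ratio test and with all 16 groups, with or without the suffix. In REPOP14 vs REPOP10 1 was called with the likelihood ratio test, the suffix, DESeq2 and all 16 groups with or without the suffix, and 3 with the replicate block, although the numbers did not pair these mice. The block changed no other count of called subunits.

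Log2 fold changes near 0 turned sign. C1qa in REPOP60 vs CD was 0.056 with the suffix, 0.022 with the replicate block and 0.084 with all 16 groups and the suffix (-0.29 to 0.13 with a mouse left out). C1qc was -0.26 in REPOP60 vs CD with all 16 groups and the suffix (-0.082 to 0.21), and -0.42 and -0.21 in REPOP60 vs REPOP21 with the suffix in the pair and in all 16 groups. With a mouse left out, C1qc ran from -0.33 to 0.20 in REPOP14 vs CD and from -0.32 to 0.060 in REPOP21 vs CD. In REPOP21 vs REPOP14 the ranges were -0.26 to 0.13 for C1qa, -0.15 to 0.10 for C1qb and -0.34 to 0.21 for C1qc. The C1qb difference between the LPS effects ran from -0.23 to 0.10.

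On log2(FPKM + 1), the level differences were -0.33 for C1qa in REPOP21 vs CD (exact permutation p = 0.0317), -0.47 for C1qb in REPOP60 vs CD (0.0238), -0.31 in REPOP60 vs REPOP21 (0.114) and -0.63 in LPSREPOP vs LPSCD (0.0571), and for C1qc 1.09 in LPSREPOP vs REPOP60 (0.0286), -0.094 in REPOP60 vs CD and -0.068 in REPOP60 vs REPOP21. With a pseudocount of 0.1, C1qc in REPOP14 vs CD was -0.0018. As shares of summed FPKM, C1qa in LPSREPOP was 1.90 percentage points above CD and C1qb in REPOP14 differed by -0.548.

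Within the re mice alone, often 1 or 2 a group and without a test, the level of C1qb differed from CD by -1.66 in DEP7, DEP10, DEP14 and DEP21 and by -1.48 in REPOP5. In the repopulation groups it was -1.33 (REPOP7), 0.52 (REPOP14), 0.22 (REPOP21) and -0.093 (REPOP60). C1qb was 0.60 above DEP14 and 0.28 above REPOP7 in REPOP10, 1.57 above REPOP10 in REPOP14, and differed by -0.29 in REPOP21 vs REPOP14. C1qa differed by -0.12 in REPOP21 vs CD, 0.36 in REPOP10 vs REPOP7 and 0.60 in REPOP21 vs REPOP14. C1qc differed by 0.79 in REPOP14 vs CD, 0.53 in REPOP21 vs CD, 2.22 in REPOP14 vs REPOP10 and -0.35 in REPOP60 vs REPOP21. Within the RE mice C1qb differed by -2.21 in REPOP7 vs CD and 1.04 in REPOP10 vs REPOP7. Shares in the re mice differed from CD by -10.3 points for C1qa in REPOP10, -24.5 for C1qa in REPOP14, and for C1qc by -2.57 in REPOP10, 18.6 in REPOP14 and 10.8 in REPOP21.

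Relative to the reference genes without Csf1r, an alternative chosen after seeing the data, the log2 differences from CD in REPOP10 were 0.071 for C1qa, 0.93 for C1qb and, in the mice with a count, -0.73 for C1qc. C1qb in REPOP14 was 0.74. LPSCD gave 1.16, 1.32 and 1.48, and C1qa and C1qc in LPSREPOP 1.13 and 1.14 (adjusted exact permutation p = 0.0536 each). In the re mice alone C1qa was -1.84 in REPOP10, -0.61 in REPOP14 and 0.31 in REPOP21, C1qb 1.12, 0.79, 0.17 and 1.46 in REPOP14, REPOP21, REPOP60 and LPSREPOP, and C1qc 1.40 and 1.15 in REPOP14 and REPOP21. C1qb in the RE mice of REPOP14 was 0.15. With a mouse left out, the ratios of C1qa to CD ran from -1.48 to -0.99 in REPOP10, -0.15 to 0.24 in REPOP14, -0.31 to 0.0029 in REPOP21, 0.92 to 1.48 in LPSCD and 0.94 to 1.15 in LPSREPOP, and LPSREPOP against LPSCD and REPOP60 gave -0.43 to 0.13 and 0.65 to 0.93. C1qb in LPSREPOP vs CD ran from 0.89 to 1.15. C1qc ran from -2.41 to -1.25 in REPOP10 (mice with a count), 1.17 to 1.84 in LPSCD and 0.87 to 1.28 in LPSREPOP vs CD, and from 0.42 to 0.83 in LPSREPOP vs REPOP60.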
